A study of Mus musculus and Homo sapiens with 15 samples.

Results

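Enzyme-only libraries of INSCRIBE were compared between mouse brain and HEK293XT cells, to describe which RNAs carry C-to-U editing when the enzyme is added without an antibody. The comparison holds 6 of the 15 libraries of the series, 3 from brain and 3 from HEK293XT cells at 1 ng of RNA, and each library was taken by its label. In INSCRIBE, a fusion of the rat cytidine deaminase APOBEC1 with a nanobody against rabbit IgG is added to fixed cells or tissue, where a rabbit antibody brings it to the RNAs of a chosen RNA-binding protein. Without that antibody, the edits that remain are untargeted.

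The brain libraries came from coronal slices of female C57BL/6J mice of 2 months, with 1 slice per replicate from at most 2 mice. They were fixed with paraformaldehyde (PFA), as their labels mark. The HEK293XT libraries came from a human embryonic kidney line, and the labels neither name the fixation of these low-input samples nor say that replicates were separate cultures. Brain RNA was made into libraries with a stranded total RNA kit and the 1 ng RNA with a low-input kit that keeps no strand, as the study's methods state, whereas the labels list both kits for every sample. Species, tissue, input and kit differ together, as fixation may, and cannot be told apart in any difference below. Since slices share animals, p-values reflect only how far these libraries vary, part of which may be technical. Values of 3 further brain slices that received buffer and no enzyme (buffer-only) are given beside the results. No HEK293XT library without enzyme was analysed here. The 3 HEK293XT enzyme-only libraries from 100 pg of RNA served as an alternative. They may hold the same RNA samples as the 1 ng libraries, so they cannot be taken as independent of them.

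APOBEC1 converts cytidine to uridine in single-stranded RNA. It is known for the editing of apolipoprotein B mRNA in the intestine, where a glutamine codon becomes a stop codon, and for further sites in AU-rich 3′ UTRs. It prefers a cytidine that follows an A or U (T in the sequenced DNA). Neurons express many very long genes for synaptic adhesion, channels and scaffolds, whose unspliced RNA is abundant in the nucleus, while a dividing cell line expresses more of the RNAs for ribosomes, protein folding and DNA replication.

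Editing was counted as edited bases, that is, reads with a C-to-T change summed over the cytidines of an edit cluster. Brain libraries had 258768, 273119 and 251680.0 edited bases and HEK293XT libraries 49903, 69817 and 63570.0, so that every brain library lay above every HEK293XT library, by 4.28 times on average (exact two-sided permutation p = 0.1, the smallest that 3 against 3 libraries allow). Brain clusters were more numerous (182040.0, 194013 and 180088 against 23889, 31947 and 30437) but thinner, with 1.41 edited bases per cluster against 2.12, and 78.3% ± 0.557 (SD, n = 3) of them rested on a single edited base, against 52.4% ± 1.52 in HEK293XT (exact p = 0.1 for each). Per 1000 covered target cytidines of the clusters, brain had 4.20 edited bases and HEK293XT 6.004 (exact p = 0.1). The median read depth of clusters overlapped (54.8, 57.7 and 53.2 against 48.5, 55.1 and 54.2), with brain deeper in introns (79.5 against 38.2) and HEK293XT deeper in exons (59.1 against 41.5). Since the reads carry no molecular identifiers, counts may hold PCR duplicates. The number of reads sequenced for each library is not given here.

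Counted per library and per gene, much of the brain signal was also present without enzyme. Buffer-only slices had 248657, 190659 and 184343 edited bases, each below every enzyme-only brain library, and replicate 1 was close to the lowest of them. Across matched genes, log2(CPM + 1) of brain enzyme-only and buffer-only libraries correlated at r = 0.852 to 0.869, close to the 0.868 to 0.876 between brain enzyme-only libraries, 0.676 to 0.687 between HEK293XT libraries and 0.126 to 0.141 between brain and HEK293XT. These r values describe 12508 genes, which are not independent replicates and differ in length and depth, so no p is attached. Single sites were mostly not the same: of brain sites listed in at least 2 libraries, 8.9% were listed in at least 1 buffer-only library. Sites seldom recurred within a group either, as given below. Brain values below therefore hold calls that need no enzyme, and how many of the HEK293XT values do was not tested.

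The marker sums followed the labelled sources, though not every marker did. The 9 neuronal markers summed to 4985 to 5233 CPM in brain and 62.9 to 201 in HEK293XT, where RBFOX3, SNAP25, MAP2, STMN2 and ELAVL4 had 0 edited bases. The 8 markers of dividing cells summed to 19.3 to 29.3 CPM in brain and 1964 to 2533 in HEK293XT, and the 8 of embryonic kidney lines to 7.95 to 33.0 and 598 to 974. Of the latter only 5 had an edited base, and DLK1 had none in HEK293XT. The 7 markers of mature kidney epithelium and the blood markers ALAS2 and PTPRC had no edited base in any of the 6 libraries. The 4 of choroid plexus had none in brain. The blood markers HBA-A1 and HBB-BS and the endothelial marker ABCB1A carry mouse symbols without a human match, so they could not be counted. Astrocyte markers summed to 1959 to 2079.7 CPM in brain and 243 to 521 in HEK293XT, and oligodendrocyte markers to 644 to 773 and 71.6 to 140.3. Of 5 tested astrocyte markers, edgeR called 3 higher in brain and 1 in HEK293XT. Of 4 tested oligodendrocyte markers it also called 3 and 1, beside 43.9% and 26.4% of all tested genes. Oligodendrocyte precursor markers summed to at most 282 CPM in any of the 6 libraries, microglial markers to at most 328 and endothelial markers to at most 294. In tissue, fewer cells of a type and less RNA per cell cannot be told apart.

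The base before the edited cytidine, a signature of APOBEC1, differed between the sources. In brain 30.05, 30.8 and 31.7% of edited cytidines followed an A, in HEK293XT 44.5, 44.6 and 45.2% and in buffer-only slices 22.7, 22.4 and 22.4%, so the groups formed steps without overlap. The share after a C ran the other way, with 20.2% in brain, 9.92% in HEK293XT and 26.4% in buffer-only slices, while the share after a T was 31.5%, 33.1% and 29.5%. The order held within regions. Among exon sites of matched genes 61.1% ± 0.916 (SD, n = 3) followed an A or T in brain and 76.8% ± 0.640 in HEK293XT, with 48.2% in buffer-only slices. Among intron sites the shares were 63.3% ± 1.24, 80.9% ± 0.679 and 54.3% (exact p = 0.1 for each comparison of brain with HEK293XT). At 100 pg the HEK293XT intron share overlapped the brain values, which turned the intron difference to 1.01 percentage points higher in brain (exact p = 0.4). This did not hold at intron sites with at least 20 covering reads. There the shares were 69.5, 69.7 and 68.7% at 100 pg and 61.9, 62.5 and 64.0% in brain.

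**Figure D1:**
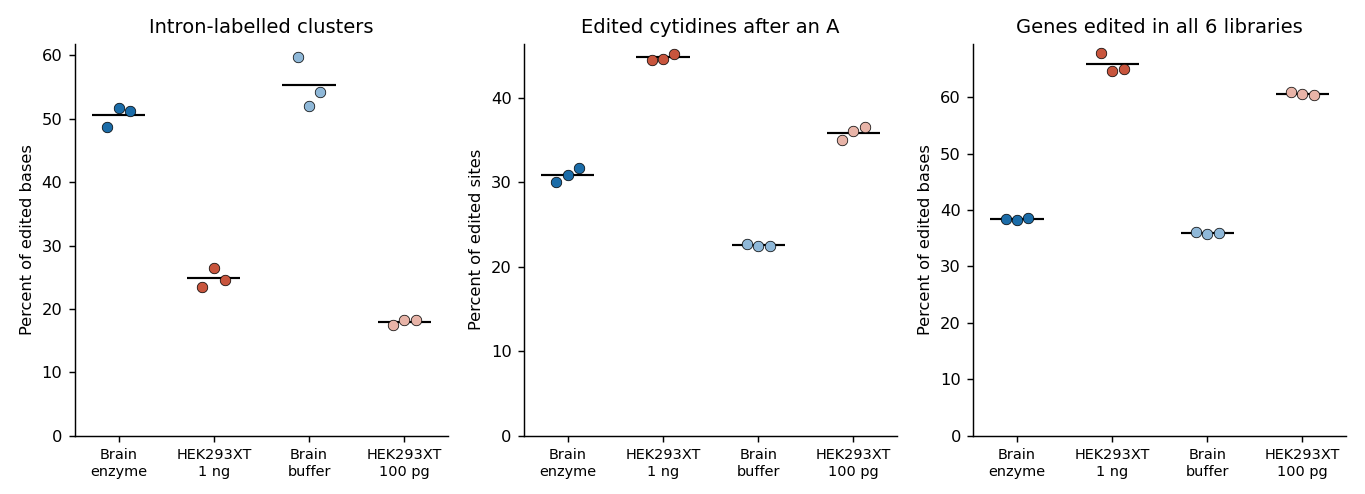
Share of edited bases in intron-labelled clusters (left), share of edited sites in matched genes with an A before the cytidine (middle) and share of edited bases in genes edited in all 6 compared libraries (right), in percent. Points are the 3 libraries of a group and lines their means. Brain enzyme-only has the larger intron share (50.6% against 24.8%), and HEK293XT at 1 ng the larger shares after an A (44.8% against 30.9%) and in shared genes (65.8% against 38.4%).

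Whether mouse and human RNAs were edited at the same cytidine was examined on windows of 30 bases around each edited site. Single sites seldom recurred: of 591853 brain sites 1.09% and of 87042 HEK293XT sites 2.03% were listed in at least 2 libraries of their group. Of 5243394 pairs of a mouse and a human site in 8450 genes with the same symbol, 868 in 734 genes had an aligned cytidine and at least 24 identical bases of 30. Of these, 860 lay in exons of both species, 4 in introns of both and 94 in windows without a mismatch, and 469 followed an A and 721 an A or T in both. Most rest on few reads, since 77.9% had 1 edited read in brain and 52.9% in HEK293XT, 97 had at least 2 in both, and requiring 2 libraries in each species left 3 sites. At 833 of the 868, buffer-only slices had no listed site.

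The 8 aligned sites with at least 3 edited reads in both species lie in 7 genes, and 5 of these genes are shown because the same cytidine was edited with near-equal surroundings. Windows run 5′ to 3′ on the RNA strand, in mm10 and hg38 coordinates, and the capital marks the edited cytidine.
Mouse SRSF5, chr12:80949989-80950018, plus strand: acttgccctgggggcCtttttttaaaaaac
Human SRSF5, chr14:69771472-69771501, plus strand: acttgccctgggggcCtttttttaaaaaac
Mouse CACUL1, chr19:60545479-60545508, minus strand: aatatagctctgggaCagtatatgggagca
Human CACUL1, chr10:118707525-118707554, minus strand: aatatagctcttggaCaatatatgggagca
Mouse GLOD4, chr11:76239444-76239473, minus strand: caagcttggcaatgaCttcatggtaaatat
Human GLOD4, chr17:776860-776889, minus strand: caagcttggcaatgaCtttatggtaaatac
Mouse HNRNPU, chr1:178329062-178329091, minus strand: atctgtaaaatgtgaCttttttttttatca
Human HNRNPU, chr1:244854163-244854192, minus strand: atctgtaaaatgtgaCtttttttttttttt
Mouse WLS, chr3:159934611-159934640, plus strand: gtgacatagcagcatCtgtagcaggtgggt
Human WLS, chr1:68125937-68125966, minus strand: gtgacatagtaacatCtgtagcagctggtt
SRSF5, which encodes an SR splicing factor, had 11 of 583 reads in brain and 4 of 232 in HEK293XT, in a 3′ UTR window that is identical in both species. CACUL1, a gene of cell cycle control, had 3 of 115 reads in brain and 3 of 97 in HEK293XT, in coding sequence. GLOD4, a glyoxalase domain gene, had 3 of 70 reads in brain and 4 of 106 in HEK293XT, at a cytidine that is coding or in the 3′ UTR depending on the transcript. HNRNPU, which encodes a nuclear scaffold protein that binds RNA, had 5 of 183 reads in brain and 3 of 179 in HEK293XT, and WLS, which encodes the carrier of secreted Wnt proteins, 3 of 90 reads in brain and 4 of 49 in HEK293XT, both in the 3′ UTR. The cytidine of CACUL1, GLOD4 and HNRNPU follows an A, that of WLS a T and that of SRSF5 a C. Buffer-only slices had 3 edited reads at the SRSF5 site, 1 at the WLS site and none at the other 3. HELZ, an RNA helicase gene, also had such a site, with 3 of 36 reads in brain and 3 of 5 in HEK293XT. These genes were chosen after their values were seen.

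Clusters that recurred in the replicates, which the authors list as confident, were compared by gene. The lists with buffer-only clusters subtracted, which is the paper's sense of confident, were not used. They numbered 4542 in 2739 brain genes and 762 in 499 HEK293XT genes, and 142 genes had one in both, which is 5.18% of the brain and 28.5% of the HEK293XT genes. Around their most edited cytidines, 283 pairs of windows had a median of 9 and at most 15 identical bases of 30, the latter in CELF2, MID1, SRSF10 and UBE3A. The edited cytidine matches in every pair by construction, and no unrelated windows were compared, so these values do not show related sequence. For MID1 and SRSF10 a mouse exon was set against a human intron.

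Genes were matched between the species by symbol, which gave 12508 genes with an edited base in any of the libraries used. Their share of all edited bases overlapped between brain (86.1, 85.9 and 86.5%) and HEK293XT (86.1, 85.9 and 85.6%; exact p = 0.5). Levels below are CPM, a gene's edited bases per 1000000 edited bases of its library, and they are not divided by gene length or expression. Of the matched genes, 4553 (36.4%) had edited bases in all 6 libraries (shared carriers), 2529 (20.2%) in all 3 brain and no HEK293XT library (brain carriers), 287 (2.29%) in all 3 HEK293XT and no brain library (HEK carriers), and 5139 fitted none of these. With every library thinned to 49903 edited bases, the size of the smallest, the numbers were 2822, 1529, 539 and 7618, so the imbalance between brain and HEK carriers narrowed with equal totals. Shared carriers took 38.4, 38.3 and 38.6% of the edited bases in brain and 67.8, 64.6 and 65.0% in HEK293XT. Genes shared after thinning took 32.6% of the unthinned edited bases in brain and 45.2% in HEK293XT (exact p = 0.1 for each). The 10 genes with the most edited bases held 4.55, 4.78 and 4.93% of the edited bases of matched genes in brain and 4.20, 4.55 and 4.65% in HEK293XT, values that overlap (exact p = 0.3), and the leading 100 held 17.4% and 11.99% (exact p = 0.1).

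By edgeR, 3271 of 4652 tested genes (70.3%) differed at an adjusted p under 0.05, 2043 (43.9%) higher in brain and 1228 (26.4%) higher in HEK293XT, and 3355 (72.1%) had CPM that did not overlap between the groups. A difference was thus the rule and not a mark of any one gene. A gene low in 1 group could pass the filter on low counts through the other group alone, and its fit then only describes it. Fitted values depend on the scaling: the median log2 difference (brain over HEK293XT) of all tested genes was 0.68 with TMM factors, -0.01 with library totals and 0.94 with DESeq2's size factors, and brain took 62.5% of the calls with TMM factors, 49.5% with library totals and 67.8% with DESeq2's size factors. A gene with a log2 difference near 0.68 is therefore near the typical gene. For 131 tested genes the 95% interval of the log2 difference lay within -1 and 1.

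**Figure D2:**
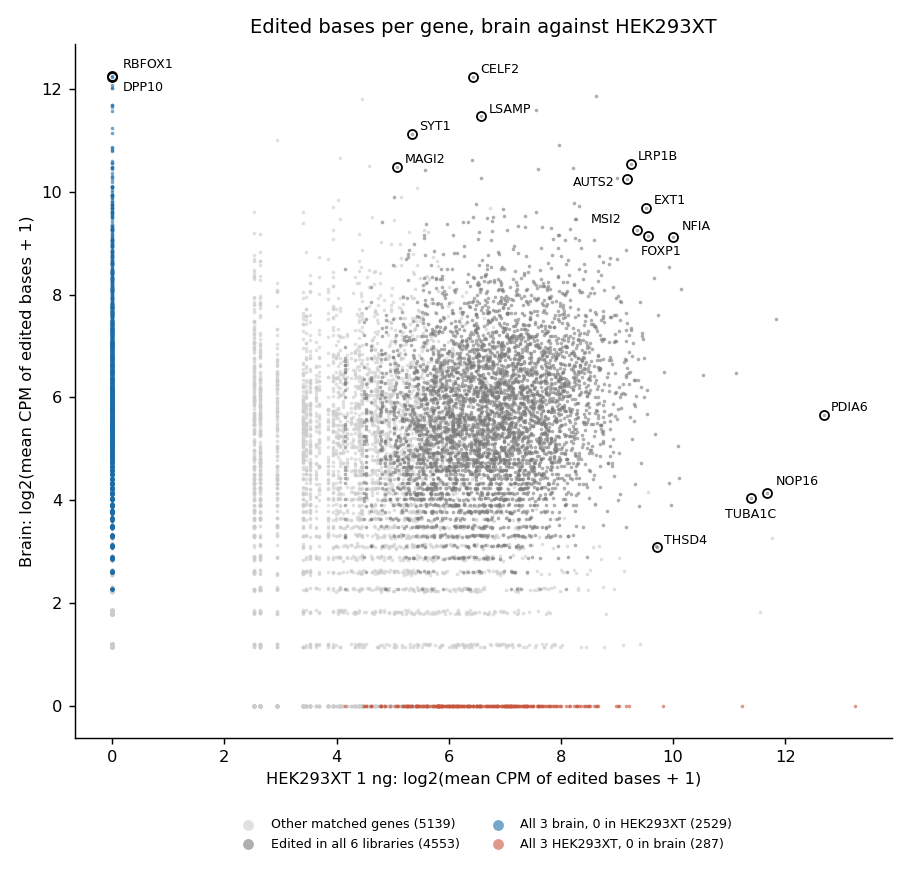
Edited bases per matched gene as log2(mean CPM + 1), HEK293XT at 1 ng on the x axis and brain on the y axis, 1 point per gene (12508 genes). Dark grey points are the 4553 genes edited in all 6 libraries, blue the 2529 found in all 3 brain libraries and no HEK293XT library, and red the 287 of the opposite kind, which lie on the axes; circles mark named genes. Shared carriers such as EXT1 and LRP1B lie to the upper right, while CELF2 and PDIA6 lie far to opposite sides.

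Values set against each other below are brain first unless stated. The 12 shared carriers with the highest level in the group where they are lower were all long genes, of 282 to 2058 kb in mouse, and brain had 73.2% to 98.1% of their edited bases in introns. EXT1, which encodes a polymerase of heparan sulfate (chromosome 15, 53064038 to 53346183 in mm10 and chromosome 8, 117794490 to 118111826 in hg38), had 727, 897 and 850.3 CPM in brain, 701, 730.5 and 771 in HEK293XT and a mean of 942 in buffer-only slices. Its CPM overlapped between brain and HEK293XT, as did those of MSI2, which encodes an RNA-binding protein of stem cells (537, 674 and 616 in brain and 1042, 602 and 330.3 in HEK293XT). RERE, which encodes a nuclear co-regulator of transcription, also overlapped (386, 425 and 477 against 441, 573 and 220.2). The edgeR fit called these 3 higher in brain (0.87, 0.64 and 0.75 on the log2 scale; adjusted p = 5.12e-04, 0.0498 and 0.0221), which rests on the TMM factors: with library totals the differences were 0.16, -0.064 and 0.054 and none was called.

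Of the other 9, 5 were not called. FOXP1, which encodes a forkhead transcription factor, had 441, 597 and 659.6 CPM in brain and 521, 874 and 849 in HEK293XT, and was not called (log2 difference 0.27 ± 0.23 SE, adjusted p = 0.296). By edgeR it was called higher in brain with 100 pg (1.28, adjusted p = 0.00974) and without clusters of 10 or more edited bases (0.86, adjusted p = 0.00444), among other settings. NFIA, a nuclear factor I gene with a role in gliogenesis, had 556, 611 and 497 against 902, 1203 and 959.6, without overlap, and was not called with TMM factors (-0.19 ± 0.18 SE, adjusted p = 0.357), although it was higher in HEK293XT with library totals (-0.89, adjusted p = 3.14e-04). ARID1B, which encodes a subunit of the BAF remodelling complex, had 441, 458 and 358 against 581, 272 and 551 and was not called (adjusted p = 0.0569). Other settings called it higher in brain, among them edgeR with DESeq2's size factors (0.83, adjusted p = 0.00957), edgeR with gene length as an offset (0.00693) and DESeq2's Wald test (0.0222). EdgeR without HEK293XT replicate 1 (0.0196) or 3 (0.0149) or without the filter on low counts (0.00319) did so too. Of these 3 only NFIA separated the groups by its CPM. Overlap without a call was also found in a pair of further genes: the ubiquitin-conjugating enzyme gene UBE2E2 (406, 469 and 517 against 521, 730.5 and 456) and ROBO1, which encodes a receptor of Slit proteins (390.3, 341 and 505 against 421, 716 and 393).

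The remaining 4 of the 12 were higher in every brain library. LRP1B, which encodes a giant receptor of the LDL receptor family, had 1496, 1461 and 1522 CPM in brain and 461, 716 and 645 in HEK293XT (1.97 ± 0.18 SE, adjusted p = 3.59e-07). KCNQ5, a potassium channel gene of the M current, had 1109, 1234 and 1371 against 581, 802 and 157 (1.96 ± 0.30 SE, adjusted p = 5.32e-05), with HEK293XT replicate 3 far below the other two. NRXN3, which encodes a presynaptic neurexin, had 3308, 3683 and 4196 against 281, 559 and 346 (3.90 ± 0.21 SE, adjusted p = 2.00e-09), and buffer-only slices had 3871. AUTS2, whose product acts with a Polycomb complex, had 1016, 1263 and 1375 against 621, 573 and 551 (1.77 ± 0.19 SE, adjusted p = 2.04e-06). Its direction turned when only clusters labelled with a single gene were counted (-1.40, adjusted p = 1.55e-04), a choice that was made after seeing the data. Per 1000 covered target cytidines, each of the 12 genes had more edited bases in HEK293XT than in brain, as in EXT1 (9.67 against 6.09) and LRP1B (19.5 against 6.51).

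**Figure D3:**
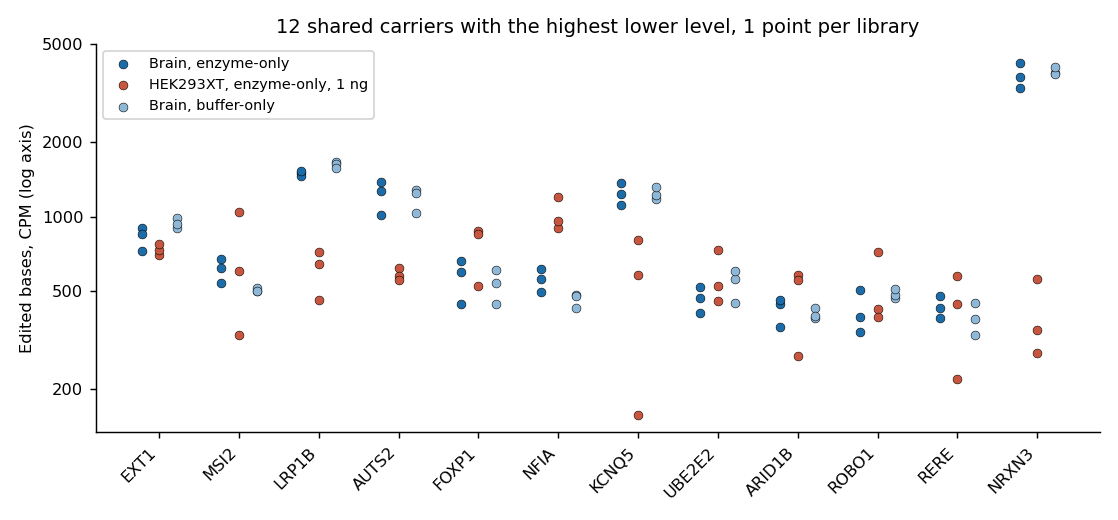
CPM of edited bases (log axis) in the 12 shared carriers with the highest level in the group where they are lower, for brain enzyme-only, HEK293XT at 1 ng and brain buffer-only; points are the 3 libraries of each group. EXT1, MSI2 and FOXP1 overlap between brain and HEK293XT, NRXN3 is higher in brain (3308, 3683 and 4196 against 281, 559 and 346), and buffer-only points lie near those of brain enzyme-only.

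Among genes edited in all 6 libraries, 8 were named as most in favour of brain. SYT1, which encodes the calcium sensor of transmitter release (chromosome 10, 108497650 to 109010982 in mm10), had 2222, 2079.7 and 2404 CPM in brain, 60.1, 43.0 and 15.7 in HEK293XT and 2182 in buffer-only slices (log2 difference 6.53). CELF2, a splicing regulator gene, had 4448, 4866 and 5126 in brain and 60.1, 85.9 and 110.1 in HEK293XT (6.47). The HEK293XT levels of both are those of 1 to 7 edited bases per library. Both could pass the filter on low counts only through brain, and all 8 were chosen by the size of their difference. The log2 differences therefore only describe them, and no p is given. MAGI2, a synaptic scaffold gene (6.10), LSAMP, which encodes an adhesion protein of the limbic system (5.62), and CNTNAP2, whose product organises axonal potassium channels (5.52), followed. PLCB1, which encodes a phospholipase C (5.48), SCHIP1, which encodes a partner of the tumour suppressor schwannomin (5.28), and the axonal kinesin gene KIF1A (5.06) completed the 8. The 8 had 86.0% to 98.2% of their brain edits in introns (their buffer-only means were 310.3 to 4835 CPM). SCHIP1 spans 561681 bases in the mouse annotation and 57500 in the human one, so its loci are not alike.

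The brain carriers with the highest levels had no edited base in HEK293XT. RBFOX1, which encodes a neuronal splicing regulator (chromosome 16, 5884793 to 7412480 in mm10), had 4583, 5071 and 5042 CPM in brain and 5360.4 in buffer-only slices. Against the 16.4 CPM that 3 edited bases over the HEK293XT group would give, it was at least 299-fold higher in brain. By the same bound DPP10 and KCNIP4, which encode auxiliary proteins of Kv4 potassium channels, were at least 294-fold and 262-fold higher. CSMD1, which encodes a complement regulator (at least 253-fold), PTPRD, a phosphatase gene of synapse formation (at least 252-fold), and OPCML, an adhesion gene (at least 202-fold), had bounds of the same order. These 6 had 95.5% to 99.3% of their edits in introns, and their buffer-only means were 3652 to 5360.4 CPM. SNHG14, the long host RNA of snoRNAs that runs antisense to UBE3A, had 3810.4, 2772 and 3028 CPM (at least 196-fold). A single exon cytidine held 14% to 15.1% of its edited bases, and it was edited in 8.604%, 7.30% and 7.96% of reads in brain and 7.83%, 8.28% and 6.54% in buffer-only slices.

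Of the genes edited in all 6 libraries, the 8 most in favour of HEK293XT each rested on 1 cluster, which held between 86.4% and 100.0% of the gene's edited bases. PDIA6, which encodes a disulfide isomerase of the endoplasmic reticulum (chromosome 2, 10783391 to 10837977 in hg38), had 5932, 7204 and 6638 CPM in HEK293XT and 54.1, 54.9 and 39.7 in brain (log2 difference -6.33). Its exon cytidine at position 10784051 was edited in 68.8, 67.2 and 66.0% of reads. NOP16, a gene of ribosome assembly, had 3166, 3266 and 3335 CPM against 3.86, 14.6 and 31.8 in brain (-6.86), with one cytidine (position 176384092 on chromosome 5) edited in 48.2, 45.4 and 48.0% of reads. TUBA1C, an α-tubulin gene, had 2465, 2865 and 2674 CPM against 30.9, 3.66 and 11.9 in brain (-6.68), and its cytidine was edited in 58.1, 66.8 and 59.0%. PDIA6, NOP16 and TUBA1C could pass the filter on low counts only through HEK293XT, so no p is given for them. The percentages of reads edited lay close together in the replicates and were in the same range in the libraries from 100 pg, with 57.9, 64.5 and 68.1% for PDIA6, 44.8, 36.2 and 48.7% for NOP16 and 52.5, 69.5 and 49.3% for TUBA1C. Since both inputs may come from the same RNA, this range is not that of independent samples.

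The other 5 showed the same form, most of them at lower percentages. The cytidine of DAD1, which encodes a subunit of the oligosaccharyltransferase, was edited in 28.7, 32.2 and 34.4% of reads, and that of RSPH10B, a gene of the ciliary radial spoke, in 44.6, 42.5 and 33.3%. THSD4, which encodes a protein of the extracellular matrix, had an intron cytidine with 13.3, 22.4 and 20.1%, ANAPC11, a subunit gene of the anaphase-promoting complex, an exon cytidine with 8.65, 4.81 and 4.35%, and DTWD2, a tRNA modification gene, an intron cytidine with 2.495, 1.73 and 2.62%. Their log2 differences were -4.93, -5.02, -5.98, -5.35 and -5.93. These genes too were chosen by the size of their difference, so no p is given. The base before the cytidine was A in NOP16 and TUBA1C, T in THSD4 and DTWD2, G in ANAPC11, and C in PDIA6, RSPH10B and DAD1. TUBA1C and RSPH10B have near-identical copies in the genome, so the assignment of their reads is uncertain. Whether these cytidines differ in this line without enzyme was not tested.

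**Figure D4:**
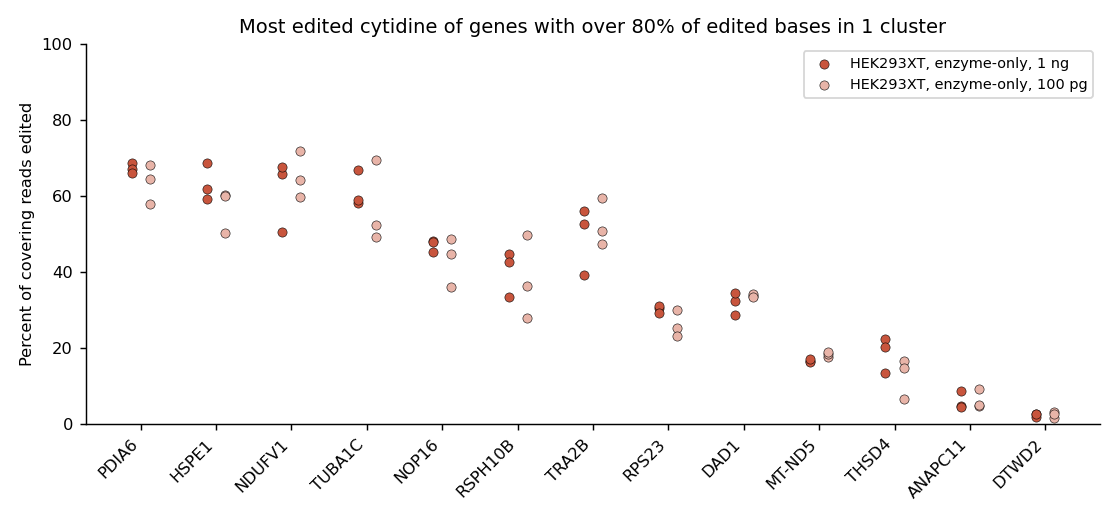
Percent of covering reads edited at the most edited cytidine of 13 named genes with over 80% of their HEK293XT edited bases in 1 cluster, for libraries from 1 ng and 100 pg; points are the 3 libraries of each input. Percentages range from 1.73% in DTWD2 to 68.8% in PDIA6 at 1 ng, and the 2 inputs lie close to each other in most genes.

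The same form was found among HEK carriers and named list members. MT-ND5, a mitochondrial gene of respiratory complex I (chromosome M, 12337 to 14148 in hg38), had 9639, 9654 and 9926 CPM and no edited base in brain, and one cytidine, edited in 16.6, 16.4 and 17.1% of reads, held all of it. RPS23, a ribosomal protein gene (30.4, 31.1 and 29.3%), HSPE1, which encodes the mitochondrial chaperonin HSP10 (68.7, 59.2 and 61.9%), NDUFV1, another gene of complex I (65.9, 67.5 and 50.5%), and TRA2B, a splicing factor gene (39.3, 52.6 and 56.0%), each had over 80% of their HEK293XT edited bases in 1 cluster. RPS23 and HSPE1 have many processed pseudogenes, so their reads too are placed with uncertainty. Without clusters of 10 or more edited bases, an alternative chosen after seeing the data, TRA2B (-0.43, adjusted p = 0.295) and DNAJB6, a chaperone gene (-0.48, adjusted p = 0.394), were no longer called.

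Other HEK carriers were spread over 5 to 28 clusters per library. HELLS, which encodes a chromatin remodeller of dividing cells, had 1162, 859 and 692 CPM in HEK293XT and none in brain, and against the 3.83 CPM that 3 edited bases over the brain group would give it was at least 236-fold higher. By the same bound the recombination gene RAD51B was at least 155-fold higher, the axonemal dynein gene DNAH14 150.0-fold and CDK1, which encodes the kinase of mitotic entry, 137-fold. GNGT1, a G protein subunit gene, and the Polycomb group gene SCML1 were at least 135-fold and 131-fold higher. RAD51B and GNGT1 had 99.1% and 98.9% of their edits in introns, CDK1 9.09% and SCML1 17.2%. GNGT1 spans 319693 bases in the human annotation and 8355 in the mouse one, and SCML1 is a protein-coding gene with 5497 exon bases in human but a lincRNA with 576 in mouse, so their loci are not alike. TSIX also belongs to the 8, but the low-input kit keeps no strand, so that its edits cannot be told apart from those of XIST, and no level is given.

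Without clusters of 10 or more edited bases, the genes most in favour of HEK293XT, chosen after their values were seen, were FHIT, TCF7L2, SLIT2, PLS3, MID1, HEATR1 and WWOX beside a long non-coding RNA. SLIT2, which encodes a guidance ligand of ROBO receptors, had 3266, 3337 and 4058 CPM in HEK293XT and 170.0, 165 and 215 in brain (log2 difference -3.64 ± 0.18, SE; edgeR adjusted p = 5.42e-11), with 96.0% of its HEK293XT edits in introns and 30.8% in brain. TCF7L2, an effector gene of Wnt signalling, had 581, 659 and 692 in HEK293XT and 27.1, 29.3 and 19.9 in brain (-3.99), and FHIT, a long gene at a common fragile site, 842, 716 and 456 in HEK293XT and 7.73, 21.97 and 11.9 in brain (-4.86). At 100 pg their CPM were lower than at 1 ng, as in SLIT2 (913, 983 and 1260.0). These CPM are still per all edited bases of a library. The clusters left out held 45.3 to 56.0% of those at 100 pg and 10.4 to 12.1% at 1 ng, so the inputs are not on the same scale.

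Genes without a partner symbol numbered 4253 in brain and 4635 in HEK293XT. In brain the leading ones were Gm26917 (44395, 45259 and 41263 CPM) and Gm42418 (20180.0, 21189 and 20566), lincRNA models that lie side by side on chromosome 17 (39843013 to 39848788 in mm10) over sequence of ribosomal RNA. Together with their surroundings this locus held 6.46, 6.65 and 6.18% of brain edited bases, and 8.20% in buffer-only slices. AC132407.1 (1798 CPM on average) and Fam155a (1593) came next. In HEK293XT the leading one was MT-CYB, the mitochondrial cytochrome b gene (18716, 19365 and 20670.0 CPM), followed by DUXAP10 (4068, 3624 and 3571) and DUXAP8 (2705, 2349 and 3068), which belong to a family of near-identical pseudogenes, and AL929602.1 (2161 on average). The mitochondrial genome held 2.84, 2.92 and 3.07% of HEK293XT edited bases and 0.00309, 0.00183 and 0.000795% in brain. Gene names that differ between the species can hide a partner, so these genes are not shown to be particular to either.

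Brain edits lay in introns more often. Intron-labelled clusters held 48.7, 51.7 and 51.2% of edited bases in brain and 23.5, 26.5 and 24.5% in HEK293XT, with no overlap (difference 25.7 percentage points, exact p = 0.1), and 59.7, 52.0 and 54.3% in buffer-only slices. Within shared carriers the means were 52.1% and 25.4%, and without the ribosomal locus and the mitochondrial genome 54.0% and 25.6%. In clusters of at least 2 edited bases the gap was smaller (34.2% against 22.8%). The kits move with this share, as does the depth of intron clusters given above, and their part in it was not tested. Per gene, 1861 shared carriers had at least 20 edited bases in each group, with a median intron share of 36.4% in brain and 19.4% in HEK293XT. The share was higher in brain in 1274 of them, higher in HEK293XT in 541 and equal in 46, and 7 had over 90% in brain with under 10% in HEK293XT, against 0 of the opposite kind. MSI2 (78.9% in brain and 24.3% in HEK293XT) and FOXP1 (80.8% and 33.3%) showed the shift, while LRP1B (87.7% and 100%) and ROBO1 (73.2% and 74.0%) did not.

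Long genes carried more of the brain edits. Genes over 100 kb in their own species (2132 matched genes in mouse and 2944 in human) held 49.9, 52.1 and 52.5% of the matched edited bases in brain and 26.2, 28.8 and 27.4% in HEK293XT, with a mean of 54.4% in buffer-only slices (exact p = 0.1 for brain against HEK293XT). The gap was present in exon-labelled (29.5% against 18.5%) and in intron-labelled clusters (69.1% against 56.5%; exact p = 0.1 for each). Genes over 200 kb held 35.0% and 11.7%. The median mouse length was 35.5 kb for shared carriers, 33.4 kb for brain carriers and 23.8 kb for HEK carriers. After thinning these medians were 49.7, 57.0 and 18.1 kb.

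In separate fits of exon-labelled clusters, 937 of 2605 tested genes (36.0%) were higher in brain and 679 (26.1%) higher in HEK293XT. In intron-labelled clusters 921 of 1521 (60.6%) were higher in brain and 283 (18.6%) in HEK293XT, so the excess of brain calls was larger among introns, where the median log2 difference of all tested genes was 2.29 against 0.21 for exons. NF1, a tumour suppressor gene whose mRNA is a known APOBEC1 target, was 0.60 ± 0.23 (SE; edgeR adjusted p = 0.0307) over all clusters and -1.22 (adjusted p = 1.02e-03) over intron-labelled ones. ROBO1 turned from 0.36 to -0.69 in the intron fit (adjusted p = 0.0193).

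Gene classes were described by 17 lists and 5 classes of annotation or locus, each as a share of the library's edited bases. A class whose groups did not overlap had exact p = 0.1, the smallest that could arise here, and adjusted p = 0.116 over the 22 classes. No class could therefore pass an adjusted p of 0.05. Lists were chosen with earlier results of these data known, and the counts of called members stand beside the 43.9% and 26.4% of all tested genes called higher in brain and in HEK293XT, with a median log2 difference of 0.68 over all tested genes. A member can pass the filter on low counts through the group where it is high, so counts and medians over tested members only describe them.

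Neuronal lists held more of the brain edits. Adhesion and guidance genes took 5.62, 6.07 and 6.23% of edited bases in brain, 0.667, 0.722 and 0.735% in HEK293XT and a mean of 6.37% in buffer-only slices. Of 72 listed, 14 were shared carriers and 46 were brain carriers. Postsynaptic scaffold and receptor genes took 2.74, 2.90 and 3.03% against 0.130, 0.168 and 0.120%, and of 53 listed 8 were shared and 39 brain carriers. DLG2, which encodes the scaffold PSD-93, had 3238, 3533 and 3874 CPM in brain and 0, 0 and 62.9 in HEK293XT. KALRN, which encodes a guanine nucleotide exchange factor of dendritic spines, had 1828, 2028 and 1788 in brain and none in HEK293XT. LRRTM4, a gene of excitatory synapse adhesion, had 1360.3, 1465 and 1498 against 40.1, 28.6 and 0. Members without an edited base in HEK293XT could pass the filter on low counts only through brain, so the number of calls is not given for the neuronal lists. The same holds for DLG2 and LRRTM4, so their fits are not given. Brain libraries also had more edited bases, and the part of that depth in the carrier counts of these lists was not tested.

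Presynaptic genes took 1.27, 1.27 and 1.35% of brain and 0.0521, 0.0960 and 0.0865% of HEK293XT edited bases, and of 48 listed 8 were shared and 28 brain carriers. ERC2, an active zone gene, had 1453, 1530.5 and 1693 against 160.3, 28.6 and 62.9 CPM, and CADPS, a gene of dense-core vesicle release, 958, 1051 and 934 in brain and none in HEK293XT. ERC2 too could pass the filter on low counts only through brain, so its fit is not given. Voltage-gated channel genes took 1.98, 1.99 and 2.10% against 0.158, 0.175 and 0.0787%, and of 41 listed 7 were shared and 28 brain carriers, among the latter the BK channel gene KCNMA1 (1859, 1875 and 1641 CPM in brain and none in HEK293XT). In each of the 4 neuronal lists the groups were apart in exon-labelled clusters too, as for presynaptic genes (0.454, 0.396 and 0.478% against 0.0131, 0.0429 and 0.0521%). The difference was smaller for cytoskeletal motors, spectrins and linkers (1.16, 1.13 and 1.17% against 0.609, 0.518 and 0.453%). Of 56 listed, 33 were shared and 7 brain carriers. Since the latter could pass the filter only through brain, the number of calls is not given. The list members ANK2 and ANK3, which encode the ankyrins that anchor axonal channels, differed by 4.34 and 5.31, and DST, which encodes the linker dystonin, by 1.45 ± 0.24 SE, adjusted p = 8.68e-05, a call that ended when only clusters with a single labelled gene were counted (-0.11, adjusted p = 0.768). Buffer-only means of the lists were 1.34%, 3.19%, 2.14% and 1.16% for presynaptic, postsynaptic, channel and cytoskeletal genes.

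**Figure D5:**
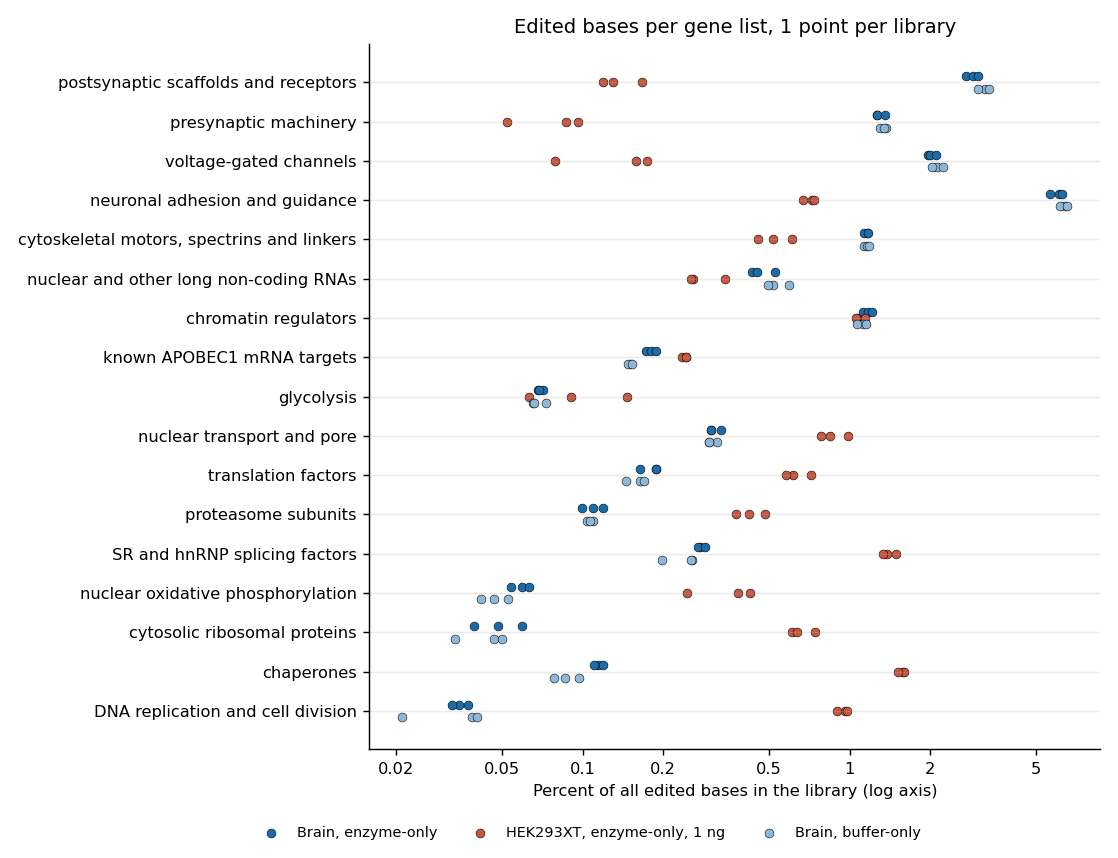
Share of each library's edited bases in 17 gene lists (x axis, percent, log scale), with the lists ordered by the ratio of brain to HEK293XT means; points are the 3 libraries of each group. Neuronal lists at the top lie to the right in brain (postsynaptic genes 2.89% against 0.139%), housekeeping and replication lists at the bottom to the right in HEK293XT (DNA replication and cell division 0.944% against 0.0347%), and buffer-only points lie near brain enzyme-only ones.

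DNA replication and cell division genes took 0.0371, 0.0344 and 0.0326% of brain and 0.958, 0.975 and 0.898% of HEK293XT edited bases. Of 54 listed, 12 were shared carriers, 20 were HEK carriers and 21 had no edited base in brain, and since the latter could pass the filter only through HEK293XT, the number of calls is not given. RFC3, a subunit gene of the clamp loader, had 741, 501 and 787 CPM in HEK293XT and 0, 0 and 3.97 in brain. RRM2, a subunit gene of ribonucleotide reductase, had 601, 473 and 236 in HEK293XT and 0, 3.66 and 0 in brain. Both could pass the filter only through HEK293XT too, so their fits are not given. SR and hnRNP splicing factor genes took 0.276, 0.270 and 0.287% against 1.38, 1.495 and 1.33%, with 27 of 35 tested higher in HEK293XT and 0 higher in brain (median -1.98). SRSF10 (-2.27 ± 0.27 SE, adjusted p = 6.22e-06) and SRSF11 were among them, with SRSF11 at 641, 616 and 645 CPM in HEK293XT and 85.0, 43.9 and 43.7 in brain. SRSF11 could pass the filter only through HEK293XT, so its fit is not given. Nuclear transport genes took 0.329, 0.304 and 0.304% against 0.842, 0.783 and 0.983% (18 of 37 tested higher in HEK293XT, 2 in brain; median -0.98), with the importin gene IPO7 at -2.53 and the exportin gene XPO1 at -1.42.

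Housekeeping lists took larger shares in HEK293XT, and single cytidines held part of some of them. Chaperone genes took 0.114, 0.120 and 0.111% of brain and 1.59, 1.60 and 1.52% of HEK293XT edited bases, with 15 of 18 tested higher in HEK293XT (median -1.93). Without clusters of 10 or more edited bases their share was 0.125, 0.131 and 0.120% against 0.669, 0.428 and 0.408%, a count that leaves out the clusters of PDIA6 and HSPE1. Cytosolic ribosomal protein genes took 0.0595, 0.0392 and 0.0481% against 0.611, 0.636 and 0.741%, of which the HEK293XT share was 0.356, 0.389 and 0.467% without such clusters. Of 77 ribosomal protein genes listed, 9 were shared carriers and 10 had no edited base in brain. Since the latter could pass the filter on low counts only through HEK293XT, the number of calls is not given. RPL31 had 7.73, 0 and 7.95 CPM in brain against 541, 201 and 157 in HEK293XT. Genes of nuclear-encoded oxidative phosphorylation took 0.0591, 0.0542 and 0.0632% against 0.425, 0.382 and 0.247%. Of 47 listed only 8 passed the filter on low counts, so the number of calls is not given. Proteasome genes took 0.119, 0.0996 and 0.109% against 0.377, 0.483 and 0.420% (9 of 12 tested higher in HEK293XT and 1 in brain). Translation factor genes took 0.189, 0.164 and 0.189% against 0.717, 0.616 and 0.579% (13 of 20 tested higher in HEK293XT). The medians were -1.75 for proteasome and -1.34 for translation factor genes. PSMD1, a subunit gene of the proteasome cap, differed by -2.30, and the initiation factor genes EIF1AX and EIF4G3 by -2.33 and -0.68 (adjusted p = 1.85e-05 and 0.00659). Neither was called in exon-labelled clusters (-0.64 and -0.37; adjusted p = 0.191 and 0.579), and EIF4G3 was not called with DESeq2's size factors (adjusted p = 0.0735), by DESeq2's Wald test (0.14), without a filter on low counts (0.216) or with 100 pg (0.417). The release factor gene ETF1 differed by -2.54 and the succinate dehydrogenase gene SDHD by -3.04. In buffer-only slices the means were 0.0869% for chaperone, 0.0433% for ribosomal protein, 0.0470% for oxidative phosphorylation, 0.106% for proteasome and 0.160% for translation factor genes.

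Some classes overlapped between the sources. Chromatin regulator genes took 1.12, 1.17 and 1.22% of brain and 1.07, 1.15 and 1.06% of HEK293XT edited bases, values that overlap (exact p = 0.2), with 28 of 56 tested members higher in brain and 5 in HEK293XT (median 0.86). Of the listed chromatin genes, 3 had no edited base in HEK293XT and could pass the filter only through brain. CHD9, which encodes a chromatin remodeller, was apart from this, with 754, 820.2 and 632 CPM in brain and 40.1, 100.3 and 236 in HEK293XT. It could pass the filter on low counts only through brain, so its fit is not given. Glycolysis genes overlapped too (0.0680, 0.0714 and 0.0687% against 0.0902, 0.0630 and 0.146%; exact p = 0.4). PKM, which encodes pyruvate kinase, was -0.06 ± 0.35 SE, adjusted p = 0.886 (-3.28, adjusted p = 8.94e-05, with clusters labelled with a single gene), and PFKP, which encodes a phosphofructokinase, 3.10 ± 0.54 SE, adjusted p = 1.39e-04, while PFKM, whose HEK293XT replicate 3 was high (20.04, 28.6 and 330.3 CPM), was not tested. Protein-coding genes held 89.3, 89.2 and 89.8% against 89.6, 89.3 and 89.3% of all edited bases (exact p = 0.8), genes of non-coding RNA alone 2.53, 2.47 and 2.46% against 2.76, 2.93 and 2.77%, and pseudogenes alone 0.547, 0.591 and 0.532% against 1.43, 1.23 and 1.37%, both without overlap (exact p = 0.1).

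Known APOBEC1 mRNA targets took 0.172, 0.180 and 0.188% of edited bases in brain, 0.236, 0.245 and 0.244% in HEK293XT and 0.151% in buffer-only slices. Of 13 tested members 4 were higher in brain and 4 in HEK293XT, with a median of 0.14, below that of all tested genes. Of those listed, 2 had no edited base in HEK293XT and could pass the filter only through brain. APP, which encodes the amyloid precursor protein, had 510.1, 542 and 580.1 CPM in brain and 321, 444 and 142 in HEK293XT (1.53 ± 0.28 SE, adjusted p = 1.98e-04) with 537 in buffer-only slices. It was not called in exon-labelled clusters (0.49, adjusted p = 0.381) or with 100 pg (1.39, adjusted p = 0.143). At its most edited exon cytidine, which follows an A, 0.493%, 1.75% and 1.39% of reads were edited in brain and 0.0963%, 0.123% and 0.168% in buffer-only slices. EIF4G2, which encodes a translation initiation factor and is edited in cells with excess APOBEC1, had 69.6, 51.3 and 31.8 against 381, 158 and 393 CPM. It could pass the filter on low counts only through HEK293XT, so its fit is not given.

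Long non-coding RNAs took 0.526, 0.429 and 0.450% of brain and 0.343, 0.259 and 0.255% of HEK293XT edited bases. Of 28 listed, 10 were shared carriers and 6 had no edited base in HEK293XT. Since the latter could pass the filter on low counts only through brain, the number of calls is not given. Without clusters of 10 or more edited bases the shares were 0.354, 0.323 and 0.302% and 0.382, 0.295 and 0.290% and overlapped. KCNQ1OT1, an imprinted antisense RNA, had 348, 388 and 421 CPM in brain and 601, 243 and 173 in HEK293XT (0.96 ± 0.32 SE, adjusted p = 0.0146), which ended as a call with library totals (0.26). Since the low-input kit keeps no strand, its HEK293XT level may hold edits of the gene on the other strand. FTX, a non-coding gene of the X-inactivation centre, had 185, 139 and 159 against 621, 573 and 629 (-1.21 ± 0.23 SE, adjusted p = 2.54e-04), and its direction turned with gene length as an offset (1.27, adjusted p = 1.59e-04) and in exon-labelled clusters (0.14, not called). MEG3, MIAT, RMST and MIR9-3HG were among the listed RNAs without an edited base in HEK293XT.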

How the data were processed

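The labels gave 3 libraries to each group. The authors trimmed single-end reads of 100 nt (cutadapt), removed reads of repeats, aligned them with STAR (2.4.0 for human hg38 and 2.5.2 for mouse mm10, per the submitters' processing notes and the methods), called C-to-T sites with SAILOR without dbSNP positions and grouped them into clusters with FLARE at an FDR of 0.1. The deposited cluster tables hold edited-base counts, and the deposited site lists a SAILOR confidence score and an edit fraction per cytidine with its covering reads. The mean read depth of a cluster is a signal column as deposited by the authors, and the confident lists intersect the clusters of the 3 replicates. The paper uses the term for clusters that remain after buffer-only clusters are also subtracted.

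Sites with a score over 0.5 and an edit fraction under 0.8 were kept, after the study's filter. Edited-base counts were summed per gene in the label where the cluster lay within that gene's annotated locus, and genes were matched by symbol in capitals. This locus check departs from the plan to count every label gene, since labels name several genes for 33.9% of brain and 19.5% of HEK293XT clusters. It dropped 5.92% and 2.64% of label-gene edited bases, and 52 matched genes without an annotated locus were kept as labelled. Genes passing filterByExpr were tested with edgeR 4.0.16 (TMM, quasi-likelihood F test, Benjamini-Hochberg adjusted p under 0.05, R 4.3.3), with DESeq2 1.42.0 as an alternative; shares were compared by exact two-sided permutation tests (Python 3.11.15, scipy 1.17.1), whose smallest p is 0.1. The edgeR step was first tested on simulated data. Sequences were read with pysam 0.24.0 from the mm10 and hg38 genomes.

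Genes named are the 12 shared carriers with the highest smaller group mean, the 8 called genes with the largest difference each way among those edited in all 6 libraries with a mean of at least 20 edited bases and no overlap, the 8 carriers of each group alone and the 4 unmatched genes of each with the highest mean CPM, and the 3 members of each list with the highest mean CPM. The members and lists were chosen with earlier results of these data known. Depth is given as edited bases and covering reads, and floors of 3 counts cover counting error only. The RBFOX2 libraries and the buffer-subtracted lists were not used here. A few items that the naming rule or the aligned sites would bring in are not reported here.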

Additional observations from a re-analysis of the deposited data

How the results depend on the processing

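Of 83 named genes with a fitted difference, 54 kept their call and direction in every alternative that gave them a value and 29 did not, though not every gene was tested in each. Against 3271 calls (2043 higher in brain and 1228 in HEK293XT), edgeR made 6049 calls without a filter on low counts, of which 4388 were higher in brain, and 1358 (805 and 553) with clusters of at least 2 edited bases. It made 1616 (937 and 679) in exon-labelled and 1204 (921 and 283) in intron-labelled clusters, where fewer genes were tested. With the 100 pg libraries 810 genes were higher in HEK293XT. With cytidines after an A it made 976 (605 and 371), of which 948 were also called above and in the same direction, and with those after an A or T 2179 (1315 higher in brain). Leaving out 1 library gave 2932 to 3194 calls, 1855 to 2073 higher in brain and 1077 to 1169 in HEK293XT. DESeq2's Wald test made 3027.

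The replicate number as a block gave 2985 calls (1934 and 1051) and p = 0.25 for the intron share by exact permutation within numbers, the smallest possible. Over genes, the deviations of same-number libraries from their group means had r = 0.018, 0.012 and -0.0024. Such an r cannot exclude shared handling of these libraries, and the main fit assumed no pairing.

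With clusters labelled with 1 gene, AUTS2 was -1.40, DST -0.11, MSI2 -0.98 and NDUFS1 0.74, and PKM was called at -3.28. In intron-labelled clusters EXT1 was -0.25, NF1 -1.22, RERE -0.24, ROBO1 -0.69 and TNPO1 0.17. In exon-labelled clusters FTX was 0.14 and MSI2 -0.39, with library totals MSI2 -0.064 and NF1 -0.10, with gene length as an offset EIF4G3 0.10 and FTX 1.27, and with 100 pg NDUFS1 0.61, each against its direction in all clusters. MSI2 was not called without brain replicate 2 (adjusted p = 0.216), brain replicate 3 (0.155) or HEK293XT replicate 3 (0.136). The difference in the protein-coding share (0.0446 percentage points) was -0.795 with 100 pg and -8.58 in exon-labelled clusters, and ran from -0.133 to 0.167 without 1 library. That of non-coding RNA genes was 0.628 in exon-labelled clusters. The intron A or T share over all sites differed by 1.01 points with 100 pg, but not in that direction at sites with at least 20 covering reads. The cause of these changes was not tested. Most brain clusters hold 1 edited base, which limits single sites more than gene sums.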
